A study of Mus musculus with 24 samples.

Results

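Brain RNA of Rap1 knockin (KI) mice was compared with that of wild-type (WT) mice on 6 of the 24 expression arrays of the series. The members were chosen by their labels, as the arrays of brain tissue, and comprised 3 KI and 3 WT brains with 1 array per mouse. All 6 mice were female. The KI mice carried the I312R change in RAP1, made with CRISPR/Cas9, and the line had been backcrossed 4 times to C57BL6 mice per the labels, named as C57BL/6N in the study's methods. The labels give the genotypes as MUT and WT without stating zygosity, and the study describes its KI mice as homozygotes compared with littermates. The age was 14 months for KI mouse C and for WT mouse F, and 15 months for KI mice A and B and WT mice D and E. The same mice also gave the liver, heart and skeletal muscle arrays of the series. Each brain was a separate animal, so the spread below is between mice of 1 line, in 1 sex and at 1 narrow age range.

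RAP1, the product of Terf2ip, is a subunit of shelterin, the complex that coats telomeres, and it is held there through its binding to TRF2. RAP1 also acts away from telomeres, where it has been linked to NF-kappaB signalling, transcription and metabolism. The brain is a tissue in which inflammation is commonly read from astrocytes, which raise Gfap when reactive, and from microglia, the resident macrophages, which express Aif1 (the gene of IBA1). The comparison asked whether brain transcripts differed between knockin and wild-type females, including those of glia, inflammasomes, cytokines and NF-kappaB targets.

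The genome edit defines the groups, so the designed oligonucleotides are shown, 5′ to 3′. Capitals mark the bases at which the guide and the donor differ over the stretch that the guide covers.
Guide RNA target: gaactgccattaaggtgATC
Donor over the guide's stretch: gaactgccattaaggtgCGG
Donor oligonucleotide: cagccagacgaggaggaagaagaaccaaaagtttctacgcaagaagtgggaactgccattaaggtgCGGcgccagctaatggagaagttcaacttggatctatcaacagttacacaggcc
The donor is 120 bases long, and the 20 bases of the guide begin at its position 50. Of these, 17 match and 3 differ, at A18C, T19G and C20G counted from 1 at the 5′ end of the guide, which are donor positions 67 to 69. The labels name 4 changed bases in the donor, and the remaining one, outside the stretch of the guide, is marked in the study's methods within the codon that follows the capitals. A base substitution leaves the transcript in place, so the level of Terf2ip mRNA does not check the genotype labels.

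Levels are log2 units of processed signal relative to the 75th percentile signal of the same array, and a difference of 1 is a doubling. The brain arrays had 75th percentile signals from 1401.0 to 2519.4 intensity units, and from 60.3% to 68.4% of their 55681 probes were well above background by the scanner software. The 6 arrays matched their tissue label, since all 11 neuronal, 15 astrocyte, 16 microglial and 16 oligodendrocyte marker genes were well above background on every array. The number of arrays limits the precision, and with 3 mice against 3 the smallest 2-sided exact permutation p is 0.1. Genes were compared with limma, with Benjamini-Hochberg adjustment over every gene tested.

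One array stood apart from the other 5, which was known from earlier results of these data when the gene lists were chosen. The array of KI mouse C correlated with the other brains at r = 0.9583 to 0.9689 over its 5 pairs, against 0.9836 to 0.9934 for the 10 pairs without it. It held 435 genes that were more than 1 log2 unit above all other brains and 88 that were more than 1 below. No other array exceeded 46 genes above, the count for WT mouse D, or 34 below, also WT mouse D. Of the 435 genes, 295 (67.8%) had levels in the liver arrays more than 2 log2 units above the other brains. Over all 16069 genes tested, 1971 met this liver criterion. The counts over all genes, the lists and the genes that turned on this array are therefore also given without KI mouse C.

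**Figure D1:**
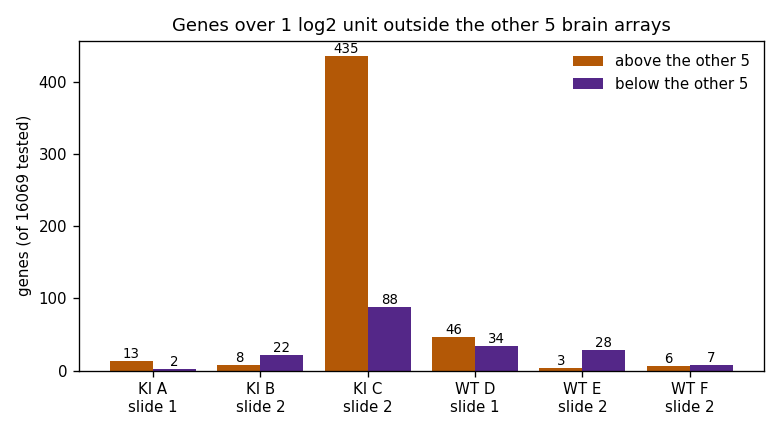
Number of genes, of 16069 tested, whose level on 1 brain array (x axis, with its slide) was more than 1 log2 unit above or below the other 5 arrays. KI mouse C had 435 genes above and 88 below, and the next array, WT mouse D, had 46 and 34.

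Genes whose levels in the liver arrays were far above the other brains made up most of the 435 in excess on the array of KI mouse C. Albumin (Alb), the main plasma protein made by hepatocytes, had levels of -5.76, -3.58 and 6.53 in KI mice A, B and C and of -7.11, -0.9996 and -0.82 in WT mice D, E and F. KI mouse C was thus higher than every other brain, while the other 5 ranged over both genotypes. Of 23 liver markers measured, 22 were highest on that array and 21 were more than 1 log2 unit above all other brains. They remained below the mean of the liver arrays by a median of 4.92 log2 units, with differences from -6.81 to -2.44. The array was also more than 1 log2 unit above the others for 35 of 53 complement and coagulation genes, 25 of 38 drug-metabolising enzymes and 22 of 38 bile acid and lipoprotein genes. Complement C3, which also belongs to the reactive astrocyte list, was at 5.42 in KI mouse C and between -0.91 and -0.06 in the other brains.

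Transcripts of the nasal epithelium were the other excess. Omp, the marker of mature olfactory sensory neurons, had levels of 1.54, 1.21 and 5.64 in the KI mice and of -2.93, 0.78 and 2.25 in the WT mice. KI mouse C was the highest and WT mouse D the lowest, and the genotypes overlapped without KI mouse C. For the supporting and gland cells of the olfactory mucosa, 8 of 9 markers were more than 1 log2 unit above all other brains in KI mouse C, as were 8 of 11 markers of olfactory sensory neurons. Cyp2g1, an olfactory cytochrome P450, was at 4.60 there and at -2.21, -4.31, -7.65, -0.93 and -6.45 in mice A, B, D, E and F. Its mean was 3.39 in the KI and 2.89 in the WT liver arrays, so it also met the liver criterion above. Bpifb3, a secreted protein of the same epithelium, was at 6.31 there and between -6.00 and -1.50 elsewhere. Of 1075 odorant receptor genes, 229 were well above background in KI mouse C, against 95 to 190 in the other brains, and 160 were more than 1 log2 unit above all of them. In bulk tissue, fewer cells of a type and less RNA per cell cannot be told apart.

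Hindbrain and cerebellar transcripts were low on the same array. Gabra6, a GABA-A receptor subunit of cerebellar granule cells, had levels of 2.53, 1.79 and -2.17 in the KI mice and of 1.26, 2.71 and 1.97 in the WT mice. The difference was -1.27 with KI mouse C and 0.17 without it. Of 13 cerebellar markers, 12 were lowest in KI mouse C and 9 were more than 1 log2 unit below all other brains. Pcp2, a Purkinje cell gene, was at 2.16 there and between 5.19 and 6.12 in the others, and Cbln1, a synaptic organiser of granule cells, was at 1.07 against 3.24 to 4.12. Over the 14 hindbrain genes measured, the mean level was -6.28 in KI mouse C, and it still spanned 3.62 log2 units among the other 5 arrays, from -5.01 in WT mouse F to -1.39 in WT mouse E. Hoxb5, a positional gene of the posterior hindbrain and spinal cord, was at 0.82, -1.37 and -7.33 in the KI mice and at -2.60, 1.10 and -3.79 in the WT mice. The order of the brains for these hindbrain values followed neither genotype nor slide. KI mouse C and WT mouse F, the mice aged 14 months, had the lowest values of both. Whether age had a part in this was not tested.

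Neurons, glia and vessels varied far less than these regions. The mean of 16 microglial markers spanned 0.13 log2 units over all 6 arrays, and the mean of 15 astrocyte markers spanned 0.28. WT mouse D was low for the olfactory bulb, with a mean of -1.96 over 6 markers against -0.67 to 0.45 in the other brains. WT mouse E was above the others by more than 1 log2 unit for 3 genes, among them Tph2, the serotonin-synthesising enzyme of raphe neurons, at -1.32 against -5.16 to -3.27, and Dbh, the noradrenaline-synthesising enzyme, at 0.38 against -3.09 to -0.85. The part of this regional variation in the genotype differences was not tested beyond the values without KI mouse C.

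No gene separated the genotypes past an adjusted p of 0.05. Of 16069 genes that every array of one or both genotypes detected well above background, 0 (0%) passed with limma and the smallest adjusted p was 1. At an unadjusted p under 0.05 there were 127 genes (0.79%), of which 64 were higher (0.398%) and 63 lower (0.392%) in KI. All KI brains were above all WT brains for 206 genes (1.28%) and below them for 253 genes (1.57%). Without KI mouse C, 16115 genes could be tested and 0 (0%) passed. There were then 168 genes at an unadjusted p under 0.05 (1.04%), with 71 higher (0.441%) and 97 lower (0.602%). KI brains stood above for 555 genes (3.44%) and below for 501 (3.11%), where 2 KI brains are more easily separated from 3 WT brains. The median difference over all genes was -0.03 with that array, with 41% of genes above 0, and 0.00 without it, with 50.1% above 0. Leaving out other single arrays gave more genes at an unadjusted p under 0.05, namely 207 without KI mouse A, 417 without KI mouse B and 406 without WT mouse E, again with 0 past the adjusted threshold.

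Terf2ip itself did not differ between genotypes by more than its spread. The levels were 1.25, 1.15 and 0.85 in the KI mice and 1.01, 1.46 and 1.16 in the WT mice. The genotypes overlapped, at 1.08 ± 0.21 and 1.21 ± 0.23 (SD, n = 3 each). The difference was -0.13 (SE 0.18, 95% interval -0.55 to 0.29), it was -0.01 without KI mouse C (-0.45 to 0.43), and a second probe gave 0.06. Genes flanking Terf2ip on its chromosome travel with the edited allele through backcrossing. Of the 10 nearest tested genes on each side, 0 of 20 reached an unadjusted p under 0.05 in limma and 0 had non-overlapping genotypes, with differences from -0.31 to 0.36 and a median of -0.01. Over 12 tested genes of shelterin and telomerase, 0 reached an unadjusted p under 0.05 and the median difference was -0.09. Tert, the catalytic subunit of telomerase, differed by -0.30, and by -0.44 without KI mouse C, where it was among the genes at an unadjusted p under 0.05. Pot1b, a single-strand telomere binding protein, exceeded background well in WT mice E and F alone and was not tested.

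Gfap showed no difference beyond its spread, which was wide on the probe used. The levels were 1.82, 3.17 and 1.49 in the KI mice and 1.86, 3.40 and 1.51 in the WT mice. Each genotype held 1 brain more than 1 log2 unit above its other 2, namely KI mouse B and WT mouse E. The means were 2.16 ± 0.89 and 2.26 ± 1.01 (SD, n = 3 each), and the difference was -0.10 (SE 0.60, 95% interval -1.53 to 1.34), or 0.24 without KI mouse C (-1.26 to 1.74). The 2 other Gfap probes gave 0.03 and -0.14. The brains also fell into 3 sets of 1 KI and 1 WT mouse that shared slide and age. On the probe used, Gfap levels followed these sets, with KI minus WT differences of -0.05 for mice A and D, -0.23 for B and E and -0.02 for C and F. With age and slide as a joint block, a fit chosen after seeing the data, the difference on that probe was again -0.10, with a narrower 95% interval of -0.42 to 0.23. The sets were less tight on another Gfap probe, brighter in these brains. It was at 3.28, 3.39 and 2.81 in KI mice A, B and C and at 2.86, 3.68 and 2.82 in WT mice D, E and F. The narrower interval therefore holds for the probe used alone. Whether the mice of a set were littermates is not given in the labels.

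Aif1 was measured more tightly. Its levels were 1.85, 1.66 and 1.96 in the KI mice and 1.81, 1.36 and 1.93 in the WT mice, and the genotypes overlapped. The difference was 0.12 (SE 0.19, 95% interval -0.32 to 0.57), and 0.06 without KI mouse C. Of 16 microglial markers, 0 reached an unadjusted p under 0.05 with or without that array, and their median difference was 0.06, or 0.05 without it. Of 15 astrocyte markers, 0 did so, with a median of 0.06, or 0.15 without KI mouse C, and KI brains then stood above WT for 4 of them, where 3.44% of all genes did. Of 30 tested genes of reactive astrocytes, Ptgs2 (prostaglandin synthase 2) alone had an unadjusted p under 0.05, at -0.38. Over all genes, 0.392% were lower in KI at that p. KI stood above WT for 3 of the 30 and below for 1, against 1.28% and 1.57% of all genes. Without KI mouse C it was again 3 above and 1 below, against 3.44% and 3.11%. The median of the list was 0.10, or 0.04 without KI mouse C. These medians compare with -0.03 over all genes tested.

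**Figure D2:**
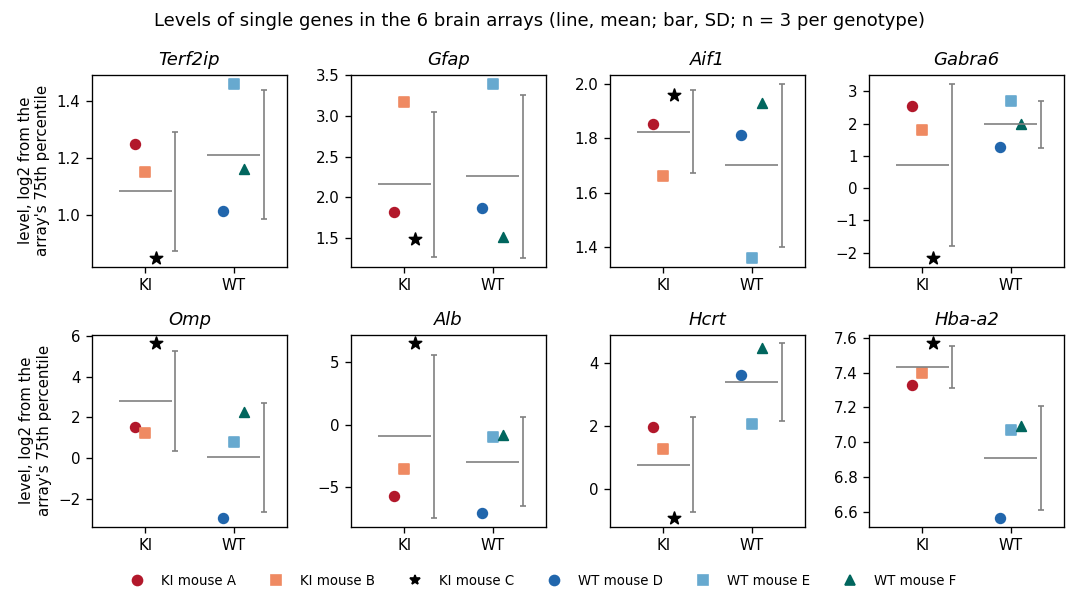
Level of 8 genes in each brain (y axis, log2 units from the 75th percentile of the array) by genotype, with the mean as a line and the SD as a bar, n = 3 per genotype. Gfap and Aif1 overlapped between genotypes, KI mouse C (star) was extreme for Gabra6, Omp, Alb and Hcrt, and the 3 KI brains were above the 3 WT brains for Hba-a2.

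Few inflammatory genes separated the genotypes, and many cytokines were dim. In the inflammasome list, 16 of 19 genes were tested, 0 reached an unadjusted p under 0.05 and the median difference was 0.12, or 0.05 without KI mouse C. P2rx7, the ATP-gated channel that triggers NLRP3, was the one member with KI above WT in every brain, at 0.27, 0.18 and 0.24 against 0.01, 0.13 and 0.13, a difference of 0.14 (SE 0.12). Nlrp3 differed by -0.16, Casp1 by 0.06 and Il1b by 0.21, with overlapping genotypes. Of 33 cytokines and chemokines of the study's panel, 11 were not well above background on any brain array, Tnf among them, and 11 could be tested. Ccl2, a monocyte chemoattractant, was the only one with KI above WT throughout, at -3.43, -3.25 and -2.94 against -3.67, -3.47 and -3.58, a difference of 0.37 (SE 0.16), or 0.24 without KI mouse C. Over all genes tested, KI stood above WT for 1.28%, the share to set beside P2rx7 and Ccl2. The median difference of the panel was 0.19, and also 0.19 without KI mouse C. Without that array, 4 of 12 tested members had KI above WT, against 3.44% of all genes. In limma, 2 of these 12, Ccl4 and Ifng, were higher in KI at an unadjusted p under 0.05, against 0.441% of all genes. Ccl4 then differed by 0.47 at an unadjusted p under 0.05. Ifng was well above background in KI mice A and B and in no WT brain, so it entered these 12 only through its higher group. The count of 2 therefore includes a member tested because it was detected in KI, and the counts were not taken again without it. The difference of Ifng there has only a bound, at least 1.007-fold higher in KI.

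Among 22 tested NF-kappaB subunits, regulators and targets, 2 had an unadjusted p under 0.05, both lower in KI, against 0.392% of all genes. Nfkbiz, which encodes an atypical inhibitor protein of the pathway, was at -4.84, -4.57 and -4.35 against -3.86, -4.02 and -4.30, a difference of -0.53 (SE 0.19), or -0.65 without KI mouse C. Ptgs2, a classical target, was at -2.11, -1.73 and -1.81 against -1.56, -1.51 and -1.43. The genotypes did not overlap for either, and 1 other tested member had KI above WT. Over all genes, KI stood below WT for 1.57% and above for 1.28%. The median of the list was -0.05, or 0.02 without KI mouse C. Rela, the p65 subunit, differed by 0.13 and Nfkb1 by 0.08. Interferon-stimulated genes gave 0 of 30 at an unadjusted p under 0.05 and a median of 0.09, or 0.05 without KI mouse C. Within that list WT mouse D was lowest for 23 genes, and Cxcl10 was at -0.11 in WT mouse F against -2.89 to -1.50 in the other brains.

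The genes with the smallest unadjusted p and no overlap between genotypes are described next, although limma's adjusted p was 1 for each. Gm16287, an uncharacterised transcript, was at -2.09, -2.55 and -2.52 in KI and at -3.12, -3.62 and -3.55 in WT, a difference of 1.05 (SE 0.20). Ccl25, a chemokine that attracts T cells to thymus and gut, was at 1.504, 1.192 and 1.405 against 0.66, 0.29 and 0.73, a difference of 0.81 (SE 0.17), and its second probe gave 0.75. Ndnf, a secreted neurotrophic factor, was at -1.96, -2.14 and -1.67 against -2.80, -2.71 and -2.55, a difference of 0.77 (SE 0.16). In each of these the lowest KI brain was above the highest WT brain. Foxb1, a forkhead factor of the mammillary region, differed by 0.59, the nicotinamide riboside kinase Nmrk2 by 0.69 and the prostacyclin receptor Ptgir by 0.79. Ptgir was well above background on all 3 KI arrays and on 2 WT arrays, so it was tested through its higher group. Noxred1 (0.64), 1810024B03Rik (0.60) and Lrrc51 (0.65) were also among the 10 on the higher side, and a second probe of Lrrc51 gave 0.76. The matrix crosslinking oxidase Loxl2 differed by 0.69 on the probe used, but its 2 other probes gave -0.11 and -0.43 and the mean over probes 0.05. Without KI mouse C the 10 differences lay between 0.55 and 1.11.

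On the lower side, Tnfrsf25, a death receptor of T cells, was at -1.90, -1.87 and -1.43 in KI and at -0.69, -0.90 and -0.68 in WT. The difference was -0.97 (SE 0.17), and -1.12 without KI mouse C. Snorc, a cartilage proteoglycan gene, was at -4.57, -3.65 and -3.60 against -2.66, -2.89 and -2.79, a difference of -1.16 (SE 0.27). Gnb3, a G protein subunit of cone photoreceptors and taste cells, differed by -0.64 (SE 0.12). Rcvrn (recoverin, a photoreceptor calcium sensor) differed by -0.89 and was well above background on 1 KI array and all 3 WT arrays. Glp2r, the receptor of an intestinal growth peptide, differed by -0.96 on the probe used and by -0.35 on its second probe. B9d1os (-1.10), Gm10584 (-0.58), the T cell chemokine Ccl17 (-0.49) and Cep295nl (-0.51) also lay below WT in all KI brains. Cep295nl, like Rcvrn, was well above background on 1 KI array and all 3 WT arrays, so both were tested through their higher group. For Gm11545, no KI brain was well above background, so its difference of -0.71 rests on dim KI values. With normexp background correction that difference turned to 0.027. Without KI mouse C the 10 lower differences lay between -1.33 and -0.48.

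**Figure D3:**
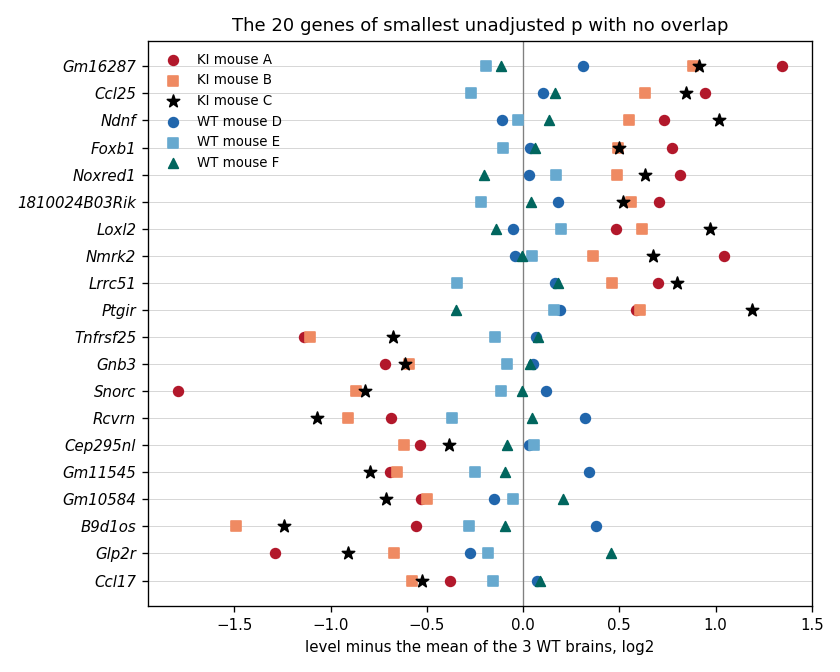
Level of the 20 genes of smallest unadjusted p with no overlap, as the difference from the mean of the 3 WT brains in log2 units (x axis), with 1 point per mouse. The genes were ordered by direction and p, so the separation is fixed by their choice, and limma's adjusted p was 1 for every one.

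Of 6 genes that the study listed for female brain, Ccl25, Lrrc51, Mdh1b and Tnfrsf25 had non-overlapping genotypes and an unadjusted p under 0.05. Because the study chose them on these same samples, this is not independent evidence of their direction. Mdh1b, a malate dehydrogenase paralogue, differed by 0.68 (SE 0.21, 95% interval 0.17 to 1.18), or 0.56 without KI mouse C. The myelin gene Mobp differed by 0.04 on the probe used, with overlapping genotypes, and its other probes gave 0.34 and 0.87. The probe with 0.87 was the brightest of them in these brains, and its genotypes did not overlap. It was at 5.16, 5.03 and 4.60 in KI and at 3.93, 3.99 and 4.26 in WT.

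Hypothalamic peptide genes varied widely from brain to brain. Hcrt, which encodes the wake-promoting orexins of the lateral hypothalamus, was at 1.98, 1.27 and -0.91 in KI and at 3.64, 2.06 and 4.50 in WT. The highest KI brain was just below the lowest WT brain. The difference was -2.62 (SE 0.87, 95% interval -4.68 to -0.55), and it was -1.77 without KI mouse C (-3.36 to -0.19). Pmch, the melanin-concentrating hormone gene of neighbouring neurons, was at 2.23, -1.35 and 0.08 against 2.21, 1.57 and 3.00, with overlap. Oxt was at 4.02, -0.23 and 3.09 against 0.53, 1.29 and 2.38, and Avp at 0.39, -2.13 and 0.07 against 0.74, -0.61 and -0.81. Over the 9 tested hypothalamic genes, Hcrt alone had an unadjusted p under 0.05, where 0.392% of all genes were lower in KI. The median difference of the 9 was -0.10. The mean level of the 10 measured was -0.54, -1.74 and -1.27 in KI and -0.61, -1.28 and -0.61 in WT, and its part in the Hcrt difference was not tested.

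Of 10 tested blood genes, 2 had an unadjusted p under 0.05, both higher in KI, against 0.398% of all genes. The alpha globin gene Hba-a2 was at 7.33, 7.40 and 7.57 in KI and at 6.57, 7.07 and 7.09 in WT, a difference of 0.52 (SE 0.18), or 0.45 without KI mouse C. The beta globin gene Hbb-bt was at 5.17, 5.02 and 5.29 against 3.91, 4.91 and 4.75, a difference of 0.64. WT mouse D was the lowest for both. Hba-a1 overlapped, at 6.25, 6.38 and 6.31 against 5.26, 6.32 and 5.72, as did Alas2, the haem-synthesis enzyme of red cells, with levels of 0.28, 0.37 and 0.23 against -1.10, 0.27 and -0.38. Near-identical globin copies can share probe signal. Without KI mouse C, 0 of 10 blood genes had an unadjusted p under 0.05.

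The medians of the metabolic lists depended on the array of KI mouse C. The median difference of the 17 tested liver markers was 1.96 with it and -0.27 without it. For complement and coagulation the medians were 0.50 and -0.07, for drug-metabolising enzymes 0.44 and 0.05, and for bile acid and lipoprotein genes 0.24 and -0.01. PPAR alpha targets and fatty acid oxidation gave 0.13 and 0.04. Serpind1 (heparin cofactor II), Cyp2d22, Fmo5 and Apod had all KI brains above all WT brains, as did 1.28% of all genes. Such genes were 1 of 35 tested for complement and coagulation, 2 of 25 drug-metabolising enzymes and 1 of 24 bile acid and lipoprotein genes. Without KI mouse C the difference fell from 0.81 to 0.33 for Serpind1, from 1.03 to 0.49 for Cyp2d22 and from 1.07 to 0.16 for Fmo5. For Apod it went from 0.25 to 0.22. Apod, a lipid carrier of glia and meninges, was at 6.54, 6.60 and 6.67 against 6.30, 6.41 and 6.35, a difference of 0.25 (SE 0.12). For the 27 oxidative phosphorylation genes, 0 had an unadjusted p under 0.05 and the median was 0.00, or 0.03 without that array.

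Several regional lists had medians that depended on that array. The cerebellar median was -0.65 over 6 arrays and 0.25 without KI mouse C, and the hindbrain median was -0.54 and 1.02. Immediate early genes, which neuronal activity induces, had a median of -0.07 and 0.22, with 10 of 12 lowest in KI mouse C. Fos was at 1.43, 1.69 and 0.01 against 0.97, 1.23 and 1.06, and its difference was 0.47 without KI mouse C. Olfactory mucosa markers had a median of 3.43 and of 0.65, and the olfactory bulb of 0.96 and of 0.66. All 14 striatal genes were higher on average in KI with a median of 0.17, yet 11 were highest in KI mouse C and without it 8 were higher and the median was 0.02. The 8 cortical genes had medians of -0.20 and -0.22.

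**Figure D4:**
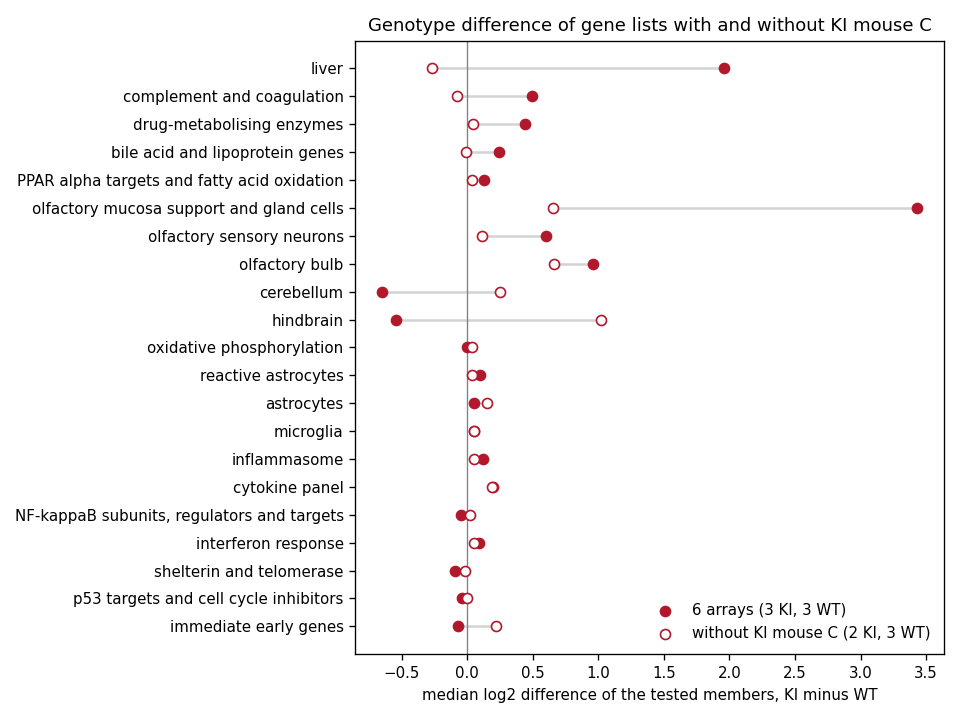
Median log2 difference (KI minus WT) over the tested members of each gene list (x axis) with all 6 arrays (filled) and without KI mouse C (open). Liver shifted from 1.96 to -0.27 and cerebellum from -0.65 to 0.25, whereas microglia stayed at 0.06 and 0.05.

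Leaving out KI mouse C changed which genes had the smallest p. Gpr151, a receptor of habenular neurons, was then the highest-ranked on the higher side at -4.54 and -4.09 against -6.16, -6.05 and -5.53, a difference of 1.60, while KI mouse C itself was at -8.14. Only 2 of the 3 WT brains had Gpr151 well above background, and only 1 had Cd200r2, a myeloid receptor family member whose difference was 1.25, so both entered the comparison through their higher group. Gm16287, well above background in all of these brains, differed by 1.11. On the lower side, Tnfrsf25 was joined by the liver-made plasma proteins Hrg, at -6.19 and -5.98 against -4.82, -4.46 and -4.52, and Gc, at -5.03 and -4.87 against -4.06, -3.63 and -3.37. In KI mouse C, Hrg was at 1.26 and Gc at 3.55. Neither KI mouse A nor B had Hrg well above background, so Hrg entered the comparison through its WT group. Its 2.788-fold higher WT level is the measured ratio and rests on dim KI values. Limma's adjusted p was 1 for each of these.

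The 10 genes that varied most over the 6 brains were Alb, Fabp1, Ahsg, Serpinc1, Cyp2g1, Bpifb3, Mup1, Scgb1c1, Chil6 and Bpifb4, which are genes of liver or of nasal and airway epithelium. Without KI mouse C the ranking was led by 4933440M02Rik, at 0.97 in KI mouse B and between -9.20 and -7.81 elsewhere. Gm1987, a chemokine gene copy, was well above background on all 6 arrays, at 2.13, -1.85 and 1.63 in KI and at 3.43, -2.33 and 3.95 in WT. KI mouse B and WT mouse E were both low, so these values split the mice within each genotype. KI mouse A and WT mouse D shared slide 1 and the other 4 brains slide 2. Both slide 1 brains were more than 1 log2 unit above all slide 2 brains for 3 genes and below for 7.

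The brain difference was also set against the mean difference of liver, heart and muscle in the same mice. Of 17295 genes, 0 (0%) passed limma's adjusted p of 0.05, and 188 (1.09%) had an unadjusted p under 0.05. Hcrt was lower in KI brain by 2.73 log2 units more than in the other tissues (log2 difference of differences -2.73). Leaving out KI mouse B gave 2 genes past the threshold, the liver P450 Cyp3a25 (limma adjusted p = 0.000443) and the metalloreductase Steap4 (0.0301). Cyp3a25 was at -3.35, -7.71 and 0.01 in the KI brains and between -8.33 and -7.52 in the WT brains, and Steap4 was at -4.04, -7.80 and -4.15 against -8.50 to -6.15. For 1810024B03Rik the KI minus WT difference was 0.60 in brain, and it was 0.82, 0.57 and 0.26 in heart, muscle and liver.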

How the data were processed

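Cy3-labelled brain RNA was run on 1-colour Agilent arrays, 1 per mouse. Per the file headers, the deposited intensity values are signals processed by Feature Extraction (background-subtracted, not normalized between arrays; design build mm9). The deposited score table holds z-scores of log signal within each array, computed by the authors, and differed from z-scores computed here by at most 0.005. Control spots and outlier spots were left out, spots were averaged per probe, and log2 of the deposited processed signal minus the array's 75th percentile was used. Probes with a symbol in RefSeq (GRCm38.p6, names and gene order only) made up 50.9%, and a gene took its probe of highest mean over 24 arrays, leaving 21364 genes. Genes detected well above background by every array of one or both genotypes were tested with limma 3.58.1 in R 4.3.3 (lmFit, eBayes, threshold 0.05), also tested on simulated data. The methods give no microarray test in the sources used here. Members and the 39 gene lists (628 of 634 listed genes measured) were chosen with earlier results of these data known. Named genes were the 20 of smallest unadjusted p without overlap, 3 per direction without KI mouse C, the 10 most variable over 6 and over 5 arrays, fixed markers, and the most extreme members of each list. Alternatives covered normalization, background correction, scale, filters, probes, slide, age, array weights, samples and replicates. The single values of some genes are not reported here.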

Additional observations from a re-analysis of the deposited data

How the results depend on the processing

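The count of genes past the adjusted threshold in the brain comparison was 0 under every alternative fit, and calling genes by a z ratio over 1.5 with an unadjusted p under 0.05 gave 131. Genes at an unadjusted p under 0.05 numbered 127, against 237 with no filter on dim probes, 336 over all array features, 214 with age as a covariate and 524 with array weights, for reasons that were not tested. With each brain array left out in turn the count was 144 to 417, and 0 past the adjusted threshold in each case. With the mouse as replicate block over all 24 arrays the count was 132 and 0 genes passed. A mouse gave 1 brain array, so the mouse numbers of the labels are shared between tissues and not between genotypes, and same-mouse arrays correlated at a mean of 0.024 in their deviations. Chosen after seeing the data, the slide 2 arrays alone gave 169, and age and slide as a joint block, whose 3 levels each hold 1 KI and 1 WT brain, gave 273 with 0 past the adjusted threshold. The comparison of brain with the other tissues gave 0 to 2 genes past the threshold when 1 brain array was left out. The non-significant difference of Terf2ip turned to 0.052 with array weights and that of Gfap to 0.28. With 1 array left out, the Gfap difference ran from -0.60 to 0.48 and turned positive without KI mouse A (0.07), KI mouse C (0.24) or WT mouse E (0.48). The Aif1 difference turned to -0.046 without WT mouse E. Gm11545, a dim probe, turned to 0.027 with normexp background correction.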

Other observations

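Of 18064 genes well above background on at least 1 brain array, 150 were so on exactly 1 array and at least 4 log2 units above the other 5. KI mouse C held 113 of these, WT mouse D 17, KI mouse A 11, KI mouse B 4, WT mouse F 3 and WT mouse E 2. Of 1971 genes whose liver arrays were more than 2 log2 units above the 5 brains other than KI mouse C, KI mouse C was the highest brain for 1070, WT mouse E for 306 and KI mouse A for 189. Among vomeronasal receptor genes, 252 were measured and 189 were not well above background on any brain array.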
